A study of Mus musculus with 12 samples.

Results

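The 6 control libraries of a 12-library mouse RNA-seq series were compared here, 3 from naive embryonic stem cells and 3 from the epiblast-like cells (EpiLCs) made from them. They were chosen by their labels alone. The main test compared the groups without pairing, and only the values per clone set each EpiLC library against the naive library of the same replicate number. Of 55487 genes in the table, 18134 had enough counts to be tested. The series asked what the loss of Pcbp1, an RNA-binding protein, does to this transition, and its other 6 libraries come from Pcbp1-knockout clones. All libraries were made from E14 Tg2a cells, a mouse embryonic stem cell line, with poly(A)-selected RNA and a stranded kit. The control clones carry the genotype label WT, and the series text calls them 3 independent control (Scr) clones, so each replicate is a clone and the 3 clones share 1 parental line. Naive cells had been adapted over 3 passages to serum-free N2B27 medium with LIF and both inhibitors known as 2i, which are the MEK inhibitor PD0325901 at 1 µM and the GSK3β inhibitor CHIR99021 at 3 µM, on poly-L-ornithine. EpiLCs were replated on fibronectin in N2B27 with 12 ng/ml bFGF, 20 ng/ml Activin A and 1% KOSR (a serum replacement), with no 2i or LIF named, and were taken after 48 hours. Medium, coating and time therefore change together and cannot be told apart.

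Naive embryonic stem cells resemble the epiblast of the blastocyst before implantation, and are held in that state by LIF signalling through STAT3 and by blocking the MEK-ERK and GSK3 kinases. When the inhibitors are withdrawn and FGF and activin are supplied, the cells lose the naive transcription factors, switch on OTX2, POU3F1 and FGF5, raise the de novo DNA methyltransferases and become able to respond to signals that specify germ layers or germ cells. This intermediate is called formative pluripotency, and EpiLCs are its usual model in culture. POU5F1 (OCT4), the factor shared by all these states, marks the cells as pluripotent throughout.

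Total counts ran from 31330742 to 38269109 in the naive libraries and from 27146744 to 39456442 in the EpiLC libraries. Levels are given in CPM, a gene's count scaled to a common library total with TMM factors, and always in the order of replicates 1, 2 and 3. Changes are fitted log2 fold changes of EpiLCs against naive cells ± their standard error, with 3 libraries per condition. EpiLC replicate 2 stood apart from the other 2 EpiLC libraries. On the first principal component of all 12 libraries (72% of the variance) the control EpiLC libraries lay at 115, 79.9 and 113, and the naive ones at -98.3, -97.3 and -95.7. Replicate 2 also stood apart on chromosome 14 in both media: over 175 genes of at least 5 CPM between 50 and 90 Mb, its log2 level differed from the mean of the other 2 clones by a median of -0.977 in naive medium and -0.996 in EpiLC medium, against -0.03 and 0.09 over the other 168 genes of that chromosome. Of the 286 tested genes in that stretch, 63 rose and 51 fell in EpiLCs. With both libraries of that replicate number left out, 4651 genes rose and 4736 fell in all, close to the counts from all libraries given next. The header of the count table shows no strand option, so reads of a gene and of an overlapping partner cannot be told apart. Among the 278 genes that the naming rule selects, 37 share over 5% of their exon bases with another annotated gene, and not all of these are marked below.

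Most tested genes differed between the conditions. At an adjusted p under 0.05, 9553 of 18134 genes (52.7%) differed, with 4780 higher in EpiLCs (26.4%) and 4773 lower (26.3%). Counts of list members given below are to be read beside these shares. By at least 2-fold, 2954 genes were higher (16.3%) and 2827 were lower (15.6%), together 31.9%. The largest changes leaned upward, since 332 genes rose and 229 fell by at least 32-fold. In 10737 genes (59.2%) the 3 EpiLC values did not overlap the 3 naive values, a count that includes both directions. In counts, the genes that rose held 22.9%, 22.4% and 22.6% of the naive libraries and 39.3%, 35.9% and 38.3% of the EpiLC libraries. The genes that fell held 29.1%, 29.7% and 29.8% before and 14.1%, 16.4% and 14.8% after. The EpiLC library of replicate 2 was the least shifted on both measures. Among the genes that passed, 9452 (98.9%) changed in the same direction in all 3 clones. These genes were selected by the test on the same libraries, so this share is no independent measure of agreement between clones.

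**Figure D1:**
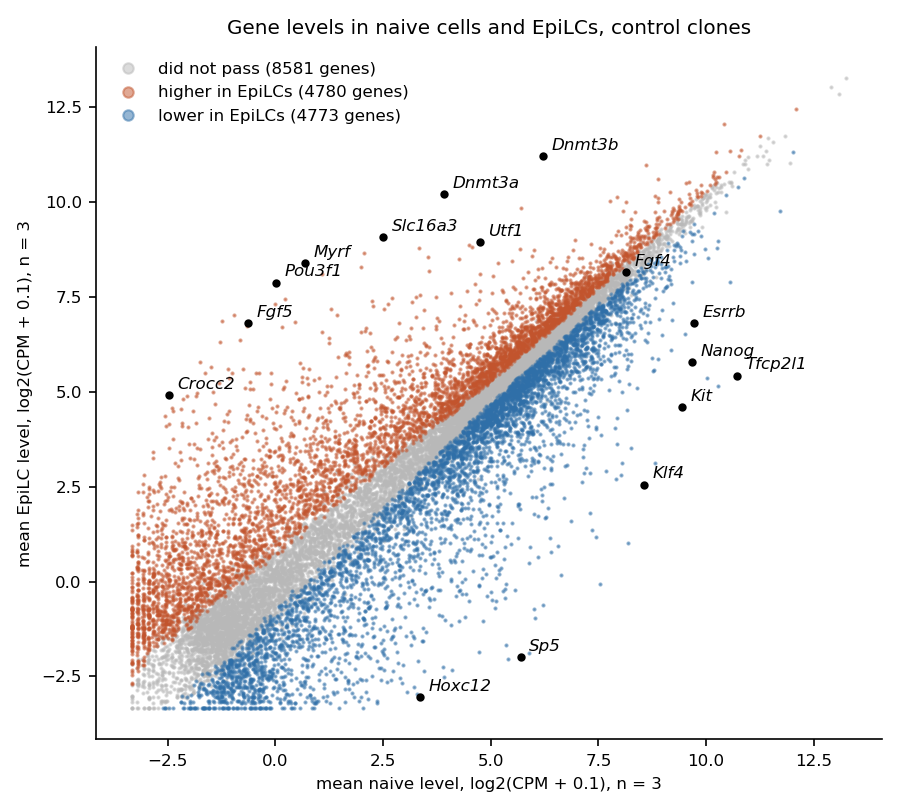
Mean level of each tested gene in the 3 naive libraries (x axis) and the 3 EpiLC libraries (y axis) of the control clones, as log2(CPM + 0.1), coloured by the test. Dnmt3a, Fgf5 and Myrf lie far above the diagonal, Klf4, Sp5 and Hoxc12 far below it, and Fgf4 lies on it.

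Of the genes of at least 5 CPM on average, those with the largest rises were nearly silent in naive cells. Crocc2, a ciliary rootlet family gene, was measured at 0.128, 0.0321 and 0.0797 CPM in the naive libraries and 29.1, 29.9 and 30.8 CPM in the EpiLC libraries. The 3 EpiLC values lay close together and far above the naive ones (log2 change 8.49 ± 0.29, edgeR adjusted p = 9.95e-10). Vrtn, which encodes a nuclear factor named for its effect on vertebra number, stood at 0.384, 0.160 and 0.425 CPM in the naive libraries and 149.5, 79.1 and 118 CPM in the EpiLC libraries (log2 change 8.44 ± 0.32, edgeR adjusted p = 1.73e-09). Car4, a membrane-bound carbonic anhydrase, went from 0.416, 0.385 and 0.451 CPM to 153, 88.9 and 146 CPM (log2 change 8.26 ± 0.28, edgeR adjusted p = 9.95e-10). In Vrtn and Car4 the lowest EpiLC value was that of replicate 2, and no groups overlapped. Among the other 9 of the 12 highest rises, ranked among named genes of at least 5 CPM on average over the 6 libraries, were the POU factor Pou3f1 (7.99), the membrane-anchored transcription factor Myrf (7.76), the interferon-induced GTPase Gbp2 (7.73), the secreted matrix protein Cthrc1 (7.91) and Aire, the transcriptional regulator known from the thymus (7.99). Jph4, a junctophilin in the low stretch of chromosome 14, reached 80.3, 12.1 and 71.4 CPM, and the low value belonged to replicate 2.

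The deepest falls at that level left almost no RNA. Hoxc12, a posterior homeobox gene, had 9.29, 10.6 and 10.5 CPM in naive cells and 0.0269, 0.0374 and 0 CPM in EpiLCs. These are 1017 against 2 counts, a 485-fold lower level with a counting interval of 134 to 4010 (exact, 95%, for counting error only). Mal, a proteolipid of membrane rafts, was at 67.1, 46.0 and 64.5 CPM in the naive libraries and 0.107, 0.112 and 0.299 CPM in the EpiLC libraries (log2 change -8.41 ± 0.51, edgeR adjusted p = 8.41e-08). Sp5, a zinc finger factor and direct WNT target, was at 77.0, 26.3 and 51.9 CPM in the naive libraries and 0.242, 0.112 and 0.0998 CPM in the EpiLC libraries (log2 change -8.32 ± 0.66, edgeR adjusted p = 7.05e-07), and the caudal factor Cdx1, another WNT target, at 44.2, 32.1 and 49.5 CPM in the naive libraries and 0.188, 0.112 and 0.133 CPM in the EpiLC libraries (log2 change -8.11 ± 0.49, edgeR adjusted p = 7.49e-08). None of these 4 genes reached 0.5 CPM in any EpiLC library, replicate 2 included. Trpm1, a cation channel gene, fell from 243, 107 and 209.8 CPM to 0.672, 0.934 and 0.964 CPM. Others among the 12 deepest falls by the same limit were the water and glycerol channel Aqp3 (-7.27), the ETS factor Spic (-7.30), the betaine methyltransferase Bhmt (-7.12), the sphingosine phosphate receptor S1pr1 (-7.17), the homeobox gene Gsc (-7.42), Serpinb1a (-7.54) and Lrrc15 (-7.58).

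The bases upstream are shown for 6 of these genes, 3 from the 12 largest changes in each direction at that level. Each run is the 250 bases before the annotated start from RefSeq (GRCm38.p6, the build family of the counts), 5′ to 3′ on the gene's strand. Capitals mark a match to one of 10 motifs searched on both strands. The first 3 belong to genes that rose and the last 3 to genes that fell, and Hoxc12 and Cdx1 are named only.
Crocc2 (chr1:93168173-93168422, + strand): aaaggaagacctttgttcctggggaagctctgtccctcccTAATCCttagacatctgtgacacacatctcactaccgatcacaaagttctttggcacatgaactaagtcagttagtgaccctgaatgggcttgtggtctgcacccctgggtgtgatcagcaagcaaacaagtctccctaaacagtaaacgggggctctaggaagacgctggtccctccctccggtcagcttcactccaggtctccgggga
Vrtn (chr12:84640769-84641018, + strand): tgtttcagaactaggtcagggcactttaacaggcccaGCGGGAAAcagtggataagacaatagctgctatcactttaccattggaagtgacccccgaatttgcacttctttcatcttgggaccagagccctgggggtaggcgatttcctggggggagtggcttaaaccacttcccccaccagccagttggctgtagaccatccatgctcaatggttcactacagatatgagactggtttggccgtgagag
Car4 (chr11:84957504-84957753, + strand): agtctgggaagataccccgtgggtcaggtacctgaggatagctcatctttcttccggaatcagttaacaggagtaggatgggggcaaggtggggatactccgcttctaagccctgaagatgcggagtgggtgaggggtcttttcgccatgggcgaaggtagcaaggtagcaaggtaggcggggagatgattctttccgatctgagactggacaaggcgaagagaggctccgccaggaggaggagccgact
Mal (chr2:127656696-127656945, - strand): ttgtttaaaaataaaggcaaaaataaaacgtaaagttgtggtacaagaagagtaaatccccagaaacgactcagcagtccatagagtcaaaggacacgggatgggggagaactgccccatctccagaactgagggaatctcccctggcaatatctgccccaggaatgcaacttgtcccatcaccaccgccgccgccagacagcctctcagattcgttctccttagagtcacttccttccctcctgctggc
Sp5 (chr2:70474673-70474922, + strand): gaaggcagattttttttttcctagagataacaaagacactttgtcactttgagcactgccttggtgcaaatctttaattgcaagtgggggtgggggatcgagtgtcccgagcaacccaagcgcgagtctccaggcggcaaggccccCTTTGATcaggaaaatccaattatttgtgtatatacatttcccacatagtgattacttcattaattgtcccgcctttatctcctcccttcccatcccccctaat
Trpm1 (chr7:64153585-64153834, + strand): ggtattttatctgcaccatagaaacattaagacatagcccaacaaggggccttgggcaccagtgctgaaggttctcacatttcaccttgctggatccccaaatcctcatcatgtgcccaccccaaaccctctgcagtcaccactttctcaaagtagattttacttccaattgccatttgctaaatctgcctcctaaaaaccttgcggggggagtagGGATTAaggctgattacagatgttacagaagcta
The upstream run of Sp5 holds CTTTGAT, the core letters bound by TCF/LEF factors of the WNT pathway, and 2.58% of all 12348 tested genes with a promoter entry hold it in their 300-base window. The run of Vrtn holds the E2F letters GCGGGAAA (2.01% of all windows). Those of Crocc2, on the reverse strand, and Trpm1 hold the OTX letters GGATTA (5.64%). Mal and Car4 hold none of the 10. CpG dinucleotides numbered 5, 4, 11, 7, 6 and 1 in the order printed.

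Over all windows (250 bases before to 50 after the start) the widest gap was in the ETS motif CCGGAAGT, held by 7.56% of the 12348 windows but by 2.14% of 2060 windows of genes at least 2-fold higher and 3.36% of 1814 windows of genes at least 2-fold lower. The STAT letters TTCCNGGAA were in 0.922% of the higher genes, 1.60% of the lower and 1.21% of all. The ESRRB letters TCAAGGTCA were in 0.243%, 0.386% and 0.292%, in the same order. For TCF/LEF the shares were 2.38%, 2.70% and 2.58%, for the octamer ATGCAAAT 1.89%, 1.60% and 1.47%, for GRHL AACCNGTT 2.09%, 1.49% and 1.81%, and for KLF GGGTGTGG 4.66%, 3.97% and 3.92%. OTX, E-box (CACGTG) and E2F letters were in 5.73%, 8.20% and 1.80% of the higher and 5.18%, 8.60% and 1.82% of the lower genes, against 5.64%, 9.81% and 2.01% of all. The median window of the genes that changed by at least 2-fold held 15 CpG in either direction, against 19 over all, and 19.4% of the higher and 24.5% of the lower windows held at most 5, against 13.7% of all. These are counts of letters in short windows, without a test, and distal elements were not searched.

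Most naive genes had fallen after 48 hours. Of 24 naive pluripotency genes, all tested, 17 fell, 2 rose and 5 did not pass, with a median log2 change of -2.58 beside -0.01 over all genes. Klf4, a Krüppel-like factor downstream of LIF, was at 412, 342 and 374 CPM in the naive libraries and 3.39, 10.4 and 3.52 CPM in the EpiLC libraries (log2 change -6.05 ± 0.43, edgeR adjusted p = 2.86e-07). Tfcp2l1, a CP2 family factor of the same pathway, was at 1616, 1686 and 1722 CPM in the naive libraries and 25.4, 71.6 and 31.7 CPM in the EpiLC libraries (log2 change -5.29 ± 0.33, edgeR adjusted p = 1.09e-07). Nanog, the homeobox factor that sustains self-renewal, was at 811, 844 and 807 CPM in the naive libraries and 34.8, 93.5 and 36.8 CPM in the EpiLC libraries (log2 change -3.90 ± 0.32, edgeR adjusted p = 9.37e-07). Naive values varied little and did not overlap the EpiLC values, while EpiLC replicate 2 was higher than either other EpiLC library in all 3 genes. Esrrb, an orphan nuclear receptor, showed the same order with 852, 810.5 and 864 CPM in the naive libraries and 63.7, 215 and 56.3 CPM in the EpiLC libraries (log2 change -2.92 ± 0.45, edgeR adjusted p = 0.000157).

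The remaining naive genes fell to different depths. The deepest were the pigment-cell factor Mitf (-5.55), the T-box factor Tbx3 (-5.24), the PR-domain factor Prdm14 (-4.66), the nuclear receptor Nr5a2 (-4.33) and the AKT coactivator Tcl1 (-4.25). Klf2 (-3.63), Klf5 (-2.68), the threonine dehydrogenase Tdh (-3.08), Dppa3 (-2.48), which protects maternal methylation, Fbxo15 (-2.25), the adhesion molecule Pecam1 (-1.39) and the TRIM protein Trim24 (-0.58) also fell. Zfp42 (REX1), the reporter gene often used to follow exit from the naive state, was at 394, 408 and 347 CPM in the naive libraries and 38.1, 174 and 35.02 CPM in the EpiLC libraries. Its change of -2.22 ± 0.49 (edgeR adjusted p = 0.00221) became -3.39 without EpiLC replicate 2.

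Several members of the naive list did not pass or rose. Nr0b1 (DAX1), an orphan nuclear receptor, was at 85.4, 63.3 and 86.0 CPM in the naive libraries and 19.3, 102 and 22.6 CPM in the EpiLC libraries, so that 2 EpiLC libraries lay below the naive range and replicate 2 above it. It did not pass (log2 change -0.71 ± 0.53, edgeR adjusted p = 0.281), but did without EpiLC replicate 2, with -1.91 and an edgeR adjusted p of 0.000669. Fgf4, the FGF ligand made by naive cells themselves, was at 320.4, 251 and 277 CPM in the naive libraries and 267, 349.6 and 238 CPM in the EpiLC libraries (log2 change 0.01 ± 0.14, edgeR adjusted p = 0.953), with overlapping groups and a sign that turned under 7 alternatives. Dppa5a, among the most abundant of the list at 1143, 1358 and 1078 CPM in the naive libraries and 982, 1109 and 732 CPM in the EpiLC libraries, did not pass (log2 change -0.34 ± 0.15, edgeR adjusted p = 0.0803) unless clones were blocked (-0.36, edgeR adjusted p = 0.0114), no filter on low counts was used (-0.34, edgeR adjusted p = 0.021) or EpiLC replicate 2 was left out (-0.48, edgeR adjusted p = 0.0223). Sox15 and Gbx2 did not pass either, with log2 changes of 0.35 and 0.46, and Gbx2 shares 43.5% of its exon bases with another gene. The neighbours Dppa2 and Dppa4, which act together at CpG-rich promoters, rose from 23.1, 27.7 and 25.9 CPM to 74.4, 74.5 and 65.7 CPM and from 42.2, 43.4 and 37.3 CPM to 178, 198 and 139 CPM.

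Of 15 factors shared by naive and primed cells, 7 rose, 3 fell and 5 did not pass (median 0.47). Utf1, a chromatin factor, rose from 26.5, 30.4 and 23.1 CPM to 541, 474 and 469 CPM (log2 change 4.21 ± 0.16, edgeR adjusted p = 1.8e-09). The RNA-binding protein Lin28a rose from 32.7, 10.2 and 24.3 CPM to 567, 330.4 and 499 CPM (log2 change 4.38 ± 0.44, edgeR adjusted p = 5.48e-06). Zfp281 (0.83) rose as well, by 0.51 without replicate 2 of both conditions. Sall4 fell by 0.56 (232, 166 and 190.1 CPM against 292, 269.9 and 305 CPM). Pou5f1 and Sox2 were added after their values were seen: Pou5f1 did not pass, at 724, 667 and 574 CPM in the naive libraries and 739.7, 561 and 565 CPM in the EpiLC libraries (log2 change -0.08 ± 0.13, edgeR adjusted p = 0.656), and Sox2 fell, at 285, 242 and 284 CPM in the naive libraries and 76.7, 183 and 80.0 CPM in the EpiLC libraries (log2 change -1.26 ± 0.28, edgeR adjusted p = 0.00207). Pou5f1 thus showed overlapping groups, while Sox2 in EpiLC replicate 2 lay closer to the naive values than to those of the other EpiLC libraries.

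**Figure D2:**
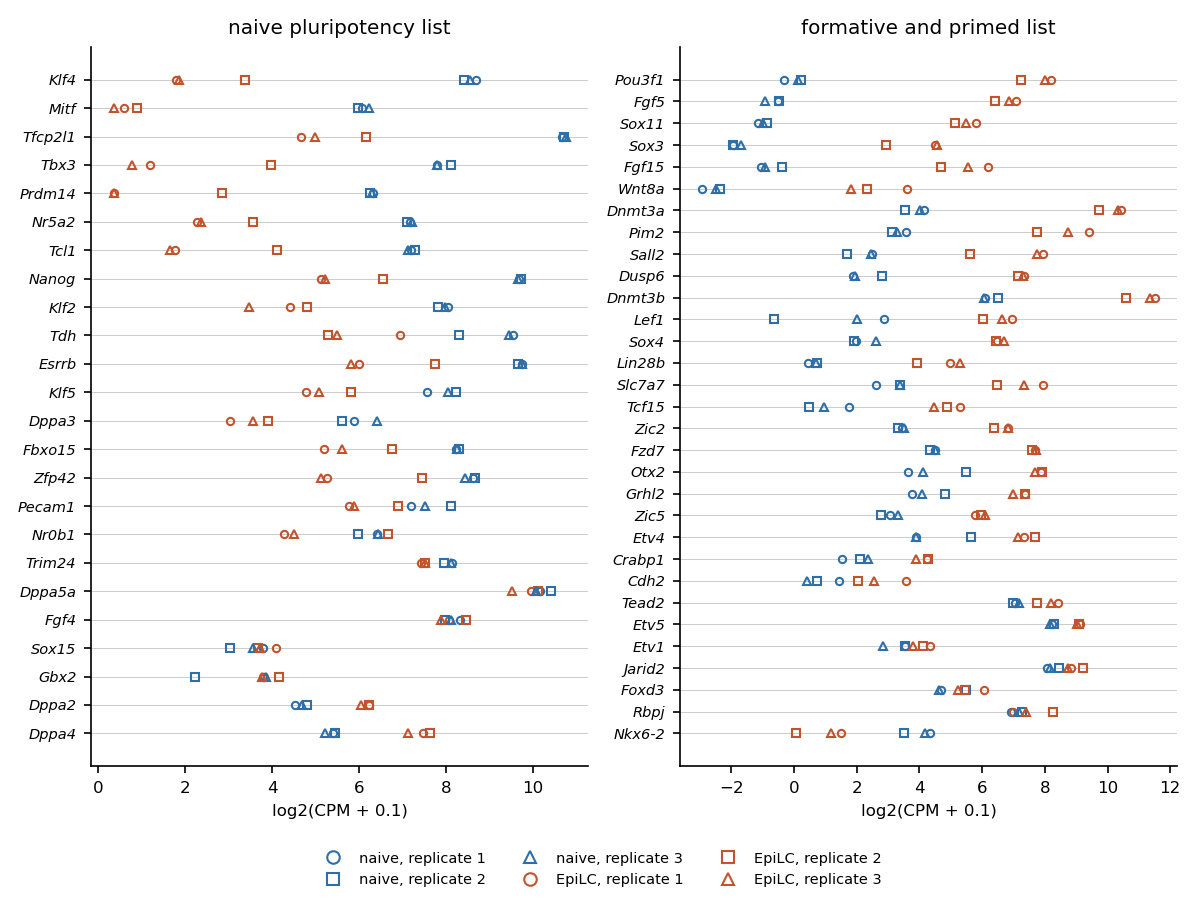
Level of every tested gene of the naive (left) and formative (right) lists in each control library, as log2(CPM + 0.1), blue for naive and orange for EpiLC, with a symbol per replicate number. In the naive list the orange square of replicate 2 lies to the right of both other orange symbols for most genes, such as Esrrb, Zfp42 and Nr0b1.

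The formative programme came up almost as a block. Of 31 formative and primed genes, all tested, 29 rose, 1 fell (the homeobox gene Nkx6-2, -3.08) and 1 did not pass (the NOTCH effector Rbpj, 0.51, edgeR adjusted p = 0.0839), with a median of 3.83. Fgf5, the classical mark of the postimplantation epiblast, was at 0.609, 0.609 and 0.425 CPM in the naive libraries and 134, 84.3 and 115 CPM in the EpiLC libraries (log2 change 7.67 ± 0.23, edgeR adjusted p = 5.95e-10). Pou3f1 (OCT6), a POU factor that takes part with POU5F1 in this state, was at 0.705, 1.06 and 0.983 CPM in the naive libraries and 294, 152 and 258 CPM in the EpiLC libraries (log2 change 7.99 ± 0.30, edgeR adjusted p = 1.5e-09). Otx2, which redirects POU5F1 to new enhancers, was already present in naive cells at 12.4, 44.5 and 17.3 CPM and reached 235, 240.3 and 208 CPM (log2 change 3.20 ± 0.39, edgeR adjusted p = 2.24e-05). The 3 genes thus came from very different floors, and the highest naive Otx2 value was that of replicate 2.

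Other formative transcription factors behaved alike. The SOX genes Sox11 (6.80), Sox3 (6.62) and Sox4 (4.37) rose, as did Sall2 (5.18), Lef1 (4.62), Tcf15 (3.83), Zic2 (3.27), Zic5 (2.89), the epithelial enhancer factor Grhl2 (2.98) and the ETS factors Etv4 (2.69), Etv5 (0.83) and Etv1 (0.77). Grhl2 was at 13.5, 27.8 and 16.9 CPM in the naive libraries and 166, 167 and 127 CPM in the EpiLC libraries, without overlap. Sall2, at 244, 48.8 and 215 CPM in EpiLCs, and the amino acid transporter Slc7a7, at 246, 88.3 and 162 CPM, lie in the low stretch of chromosome 14, and replicate 2 was the lowest in both. The kinase Pim2 (5.47), Fgf15 (6.61), Wnt8a (6.54), Lin28b (4.30), the WNT receptor Fzd7 (3.22), the retinoid carrier Crabp1 (2.13), Tead2 (1.07) and the polycomb cofactor Jarid2 (0.70) also rose. Fgf15 and Lef1 share 25.7% and 13.7% of their exon bases with other annotated genes. The weakest calls were Cdh2 (2.01), whose edgeR adjusted p rose to 0.0553 without EpiLC replicate 1, and Foxd3 (0.65, edgeR adjusted p = 0.0499), which overlapped between groups. Foxd3 was no longer called without naive replicate 1 (0.51, edgeR adjusted p = 0.168), naive replicate 3 (0.49, 0.181) or EpiLC replicate 1 (0.36, 0.256). Its call was also lost with only the control libraries fitted (0.64, edgeR adjusted p = 0.098), with library size alone or with the filter of 1 CPM. Rbpj passed with clones blocked in the fit of 12 libraries (0.42, edgeR adjusted p = 0.0411) or without EpiLC replicate 1 (0.76, edgeR adjusted p = 0.00693).

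A score per library, the mean log2 CPM of the formative list minus that of the naive list, was -4.66, -4.46 and -4.65 for the naive libraries and 2.16, 0.53 and 1.99 for the EpiLC libraries. The means were -4.59 ± 0.11 and 1.56 ± 0.89 (SD, n = 3), a difference of 6.15 with an exact two-sided permutation p of 0.1, the smallest that 3 against 3 libraries allow. Both lists were chosen with earlier results of these data known, so the score describes the libraries and its p is no independent test. The low EpiLC score is that of replicate 2, and both lists contribute, since its formative mean was 6.14 against 6.76 and 6.47, and its naive mean 5.60 against 4.59 and 4.48.

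EpiLC replicate 2 kept more of the naive RNA, though not to the same degree in every gene. Set against the naive library of the same clone, Esrrb stood at 7.48%, 26.5% and 6.52% of its naive level, Zfp42 at 9.67%, 42.8% and 10.1%, Prdm14 at 1.49%, 9.40% and 1.53%, and Tcl1 at 2.26%, 11.0% and 2.18%. In 15 of the 17 naive genes that fell, replicate 2 was the highest of the 3 EpiLC libraries. Over the 10 WNT genes that fell the median left was 10.1%, 33.6% and 6.63%, and over the 12 LIF and STAT3 genes that fell 23.5%, 30.9% and 25.1%. Replicate 2 was the highest EpiLC library in 11 of those 12, but in only 5 of the 10 WNT genes, as was replicate 1. The WNT percentages also depend on the naive level, which was lowest in replicate 2 for Axin2, Sp5 and Notum. Some single genes were nearly gone in all 3 clones. Sp5 was left at 0.314%, 0.425% and 0.192%, Cdx1 at 0.425%, 0.349% and 0.268%, and Socs3, the feedback inhibitor of LIF signalling, at 2.25%, 3.10% and 2.15%. Over the 1336 genes of at least 5 CPM that fell at least 2-fold, the median left was 27.9%, 35.9% and 29.0%, with replicate 2 the highest in 855 of them. Over the 1112 such genes that rose at least 2-fold, EpiLCs reached a median of 411%, 330% and 377% of the naive level, with replicate 2 the lowest in 711. In bulk libraries a larger share of cells still naive and more naive RNA in each cell cannot be told apart, and the part of this library in the named results was tested only by leaving it out.

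**Figure D3:**
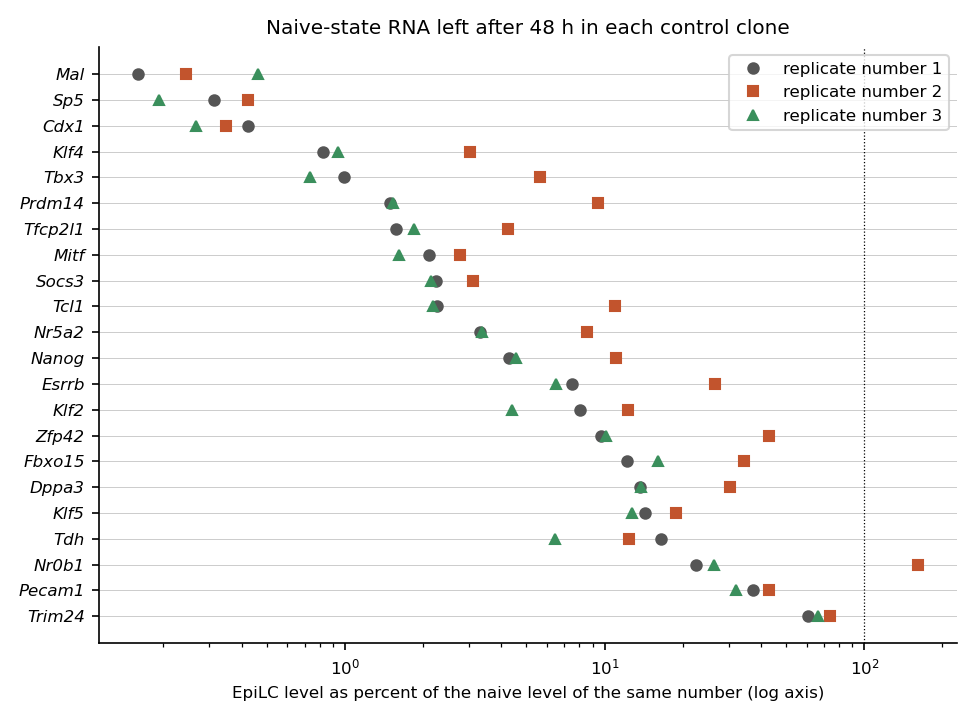
EpiLC level as a percentage of the naive level of the same replicate number, on a log axis, for the naive list genes that fell and for Sp5, Cdx1, Socs3, Mal and Nr0b1, with a symbol per clone. The square of replicate 2 lies well to the right for Zfp42 (42.8%), Esrrb (26.5%) and Nr0b1 (161%), whereas for Cdx1 it lies between the others.

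By a stricter rule, under 0.5 CPM in each library of one condition and at least 5 CPM in each of the other, 59 genes were on in EpiLCs only and 34 were on in naive cells only. The first group was led in level by Car4, Vrtn and Aire, followed by Jph4, the lysophosphatidic acid producing enzyme Enpp2 (42.8, 51.8 and 55.1 CPM in EpiLCs), Sox11, the serine protease Prss50 (39.7, 64.8 and 30.1 CPM) and the synaptotagmin Syt13 (33.5, 21.3 and 40.9 CPM). The second held Mal, Sp5, Cdx1, Serpinb1a, S1pr1, the RAS exchange factor Rasgef1a (22.1, 15.6 and 19.2 CPM in naive cells), Gsc and the nuclear body protein Sp100. EpiLC replicate 2 was the lowest EpiLC library in 44 of the 59. Without it the counts were 109 and 64.

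DNA methylation machinery changed member by member. Of 19 genes, 7 rose and 8 fell (median -0.15). The de novo methyltransferase Dnmt3a was at 17.5, 11.5 and 16.01 CPM in the naive libraries and 1372, 854 and 1293 CPM in the EpiLC libraries, which is 78.2-fold higher (log2 change 6.29 ± 0.22, edgeR adjusted p = 9.95e-10). Its partner Dnmt3b was at 67.9, 90.1 and 65.9 CPM in the naive libraries and 2911, 1536 and 2604 CPM in the EpiLC libraries (log2 change 4.98 ± 0.31, edgeR adjusted p = 9.67e-08), and the catalytically inactive cofactor Dnmt3l at 3.01, 7.24 and 2.04 CPM in the naive libraries and 420.5, 548 and 247 CPM in the EpiLC libraries (log2 change 6.64 ± 0.62, edgeR adjusted p = 2.55e-06). Dnmt3a and Dnmt3b were lowest in EpiLC replicate 2, whereas Dnmt3l was highest there. The maintenance enzyme Dnmt1 did not pass (-0.04, named after its values were seen). On the side of removal, the glycosylase Tdg rose by 1.24, while the dioxygenase Tet2 fell, at 219.6, 313 and 260.5 CPM in the naive libraries and 14.5, 60.6 and 19.5 CPM in the EpiLC libraries (log2 change -3.07 ± 0.42, edgeR adjusted p = 6.17e-05, also named after its values were seen).

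Polycomb genes moved by less. Of 29 members 10 rose and 15 fell (median -0.25), and without naive replicate 2 only 6 rose. The polyhomeotic subunit Phc1 rose (1.40), at 863, 848 and 854 CPM against 304, 359.6 and 307 CPM. Pcgf1 (-1.08), the PRC2 core subunit Eed (-0.75) and the chromobox gene Cbx8 (-2.43) fell. Of 25 regulators of histone H3 lysine 4 and lysine 9 methylation 6 rose and 3 fell (6 fell with clones blocked, 5 without naive replicate 1 or EpiLC replicate 2), among them Ehmt1 (1.35), which deposits the lysine 9 mark, upward, and the demethylases Kdm3a (-1.35) and Kdm3b (-1.39) downward. Of 19 histone variant genes 5 rose and 5 fell (3 rose without naive replicate 2 or without EpiLC replicate 1), shares near the 26.4% and 26.3% over all tested genes. The macroH2A gene H2afy fell from 174, 162 and 201 CPM to 12.2, 29.6 and 18.6 CPM (log2 change -3.16 ± 0.25, edgeR adjusted p = 6.27e-07), and H3f3b, one of the genes for histone H3.3, rose by 0.70.

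Most genes of the ERK response rose, while the FGF family changed in both directions. Among 18 ligands, receptors and cofactors of the FGF family 8 rose and 4 fell (median 0.43). Besides Fgf5 and Fgf15, Fgf13 rose (3.33), while the ligand Fgf10 fell from 9.45, 11.0 and 7.41 CPM to 0, 0.0374 and 0.0998 CPM (log2 change -7.64 ± 0.54, edgeR adjusted p = 2.7e-07). Of 23 tested genes of the ERK response (25 in the list) 17 rose and 3 fell, with a median of 1.70. The ERK phosphatase Dusp4 was at 0.577, 0.577 and 0.451 CPM in the naive libraries and 103, 139.6 and 75.3 CPM in the EpiLC libraries (log2 change 7.63 ± 0.33, edgeR adjusted p = 4.7e-09), Dusp6 at 3.59, 6.86 and 3.77 CPM in the naive libraries and 162, 142 and 156 CPM in the EpiLC libraries (log2 change 5.02 ± 0.22, edgeR adjusted p = 5.16e-09) and the feedback inhibitor Spry4 at 0.737, 0.673 and 0.478 CPM in the naive libraries and 40.1, 60.1 and 34.9 CPM in the EpiLC libraries (log2 change 6.16 ± 0.27, edgeR adjusted p = 5.28e-09). The 3 genes were low in the medium with the MEK inhibitor, and their groups did not overlap. Spry1 (4.01), which shares 24.4% of its exon bases with another gene, and the transcription factor Myc (4.23) rose too. Junb (-1.94) fell, so that the response was not uniform. EpiLC replicate 2 was the highest for Dusp4 and Spry4, and the lowest EpiLC library in 8 of the 17 genes that rose.

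LIF and STAT3 genes went the other way. Of 17 tested (18 listed), 12 fell and 2 rose (median -1.17). Socs3, the STAT3-induced inhibitor, was at 124, 116 and 108 CPM in the naive libraries and 2.79, 3.59 and 2.33 CPM in the EpiLC libraries (log2 change -5.33 ± 0.18, edgeR adjusted p = 9.95e-10). Stat3 itself fell from 166, 144 and 170.1 CPM to 38.3, 45.1 and 44.0 CPM (log2 change -1.91 ± 0.10, edgeR adjusted p = 2.89e-08). The phosphatase Ptpn11 rose by 0.49. Klf4 and Tfcp2l1, described above, belong to this list as well.

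WNT genes split, under withdrawal of the GSK3 inhibitor. Of 26 tested, 7 rose and 10 fell (median 0.00). Sp5 and Cdx1 nearly vanished, and the secreted antagonist Sfrp1 fell from 375, 279.5 and 262 CPM to 9.57, 14.2 and 10.5 CPM (log2 change -4.74 ± 0.36, edgeR adjusted p = 4.94e-07). Axin2, the general feedback target, fell with 143, 54.2 and 113 CPM in the naive libraries and 18.2, 19.4 and 8.25 CPM in the EpiLC libraries (log2 change -2.76 ± 0.37, edgeR adjusted p = 5.24e-05, named after its values were seen). The naive values of Axin2, Sp5 and Notum were lowest in replicate 2, and Notum, a WNT deacylase that shares 38.1% of its exon bases with other genes, stood at 73.3, 17.4 and 57.4 CPM in the naive libraries and 9.89, 16.2 and 4.12 CPM in the EpiLC libraries (log2 change -2.30 ± 0.59, edgeR adjusted p = 0.00553). The receptor Fzd7 rose from 22.5, 20.2 and 22.4 CPM to 208, 192 and 209 CPM, and Lef1 and Wnt8a rose as given above.

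NODAL and activin genes showed no common direction, with 5 of 22 up and 7 down (median -0.16), shares near the 26.4% and 26.3% over all tested genes. The SMAD corepressor Skil rose from 44.6, 45.2 and 44.6 CPM to 331, 322 and 397 CPM (log2 change 2.97 ± 0.13, edgeR adjusted p = 4.7e-09). The receptor Acvr1b (-1.28) and the proprotein convertase Pcsk6 (-2.21) fell. Nodal itself did not pass, at 91.0, 76.8 and 78.1 CPM in the naive libraries and 98.99, 83.1 and 72.5 CPM in the EpiLC libraries (log2 change 0.05 ± 0.15, edgeR adjusted p = 0.791), and was named after its values were seen. Among 17 BMP genes 5 rose and 7 fell (4 and 4 with only the control libraries fitted). The inhibitor of differentiation Id4 (-4.41), the ligand Bmp7 (-3.78) and the receptor SMAD Smad9 (-2.65) fell, and Bmp8b rose (2.35). NOTCH genes rose in 9 of 18 and fell in 5: the ligand Dll1 went from 0.288, 0.288 and 0.266 CPM to 23.8, 22.1 and 31.0 CPM (log2 change 6.499 ± 0.24, edgeR adjusted p = 1.46e-09), Hes6 (3.05) and the glycosyltransferase Mfng (3.11) rose, and the effector Hes1 fell (-2.01). Retinoid genes rose in 9 of 18 and fell in 4. The receptor Rarg rose from 35.4, 15.5 and 30.1 CPM to 272, 305 and 248 CPM, the carrier Crabp2 rose (4.59), and the synthesising enzyme Aldh1a3 fell (-5.82). In the Hippo list 7 of 20 rose and 9 fell, with Yap1 up (0.55) and its relative Wwtr1 (-1.12), Tead1 (-1.94) and Amotl1 (-1.12) down.

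**Figure D4:**
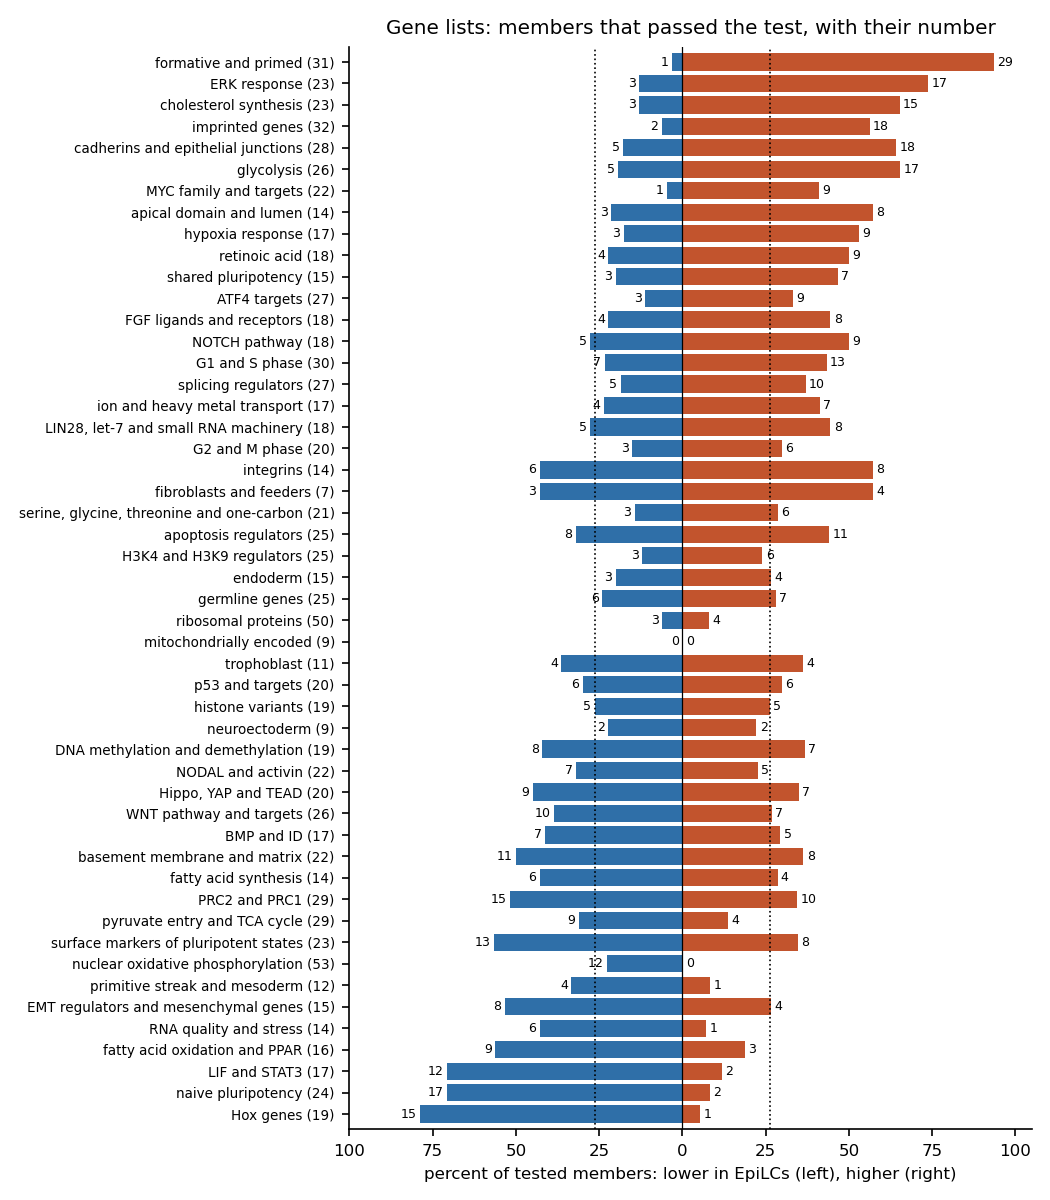
Share of the tested members of each gene list (number tested in brackets) that were lower in EpiLCs (blue, left) or higher (orange, right), with the number of genes at the bar ends. Dotted lines mark the shares over all tested genes, 26.3% lower and 26.4% higher. The formative list has 29 genes on the right and the naive list 17 on the left.

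Most epithelial genes rose. Of 28 tested cadherin and junction genes (29 listed) 18 rose and 5 fell, with a median of 1.27. With single control libraries left out 15 or 16 rose, and 14 rose without replicate 2 of both conditions. The epithelial splicing factor Esrp1 was at 0.577, 1.02 and 1.09 CPM in the naive libraries and 176, 132 and 169.9 CPM in the EpiLC libraries (log2 change 7.45 ± 0.22, edgeR adjusted p = 5.95e-10), and the keratin Krt18 at 1.76, 3.40 and 1.67 CPM in the naive libraries and 76.8, 82.6 and 95.8 CPM in the EpiLC libraries (log2 change 5.23 ± 0.30, edgeR adjusted p = 4.87e-08). Of the gap junction genes, Gja1 rose (2.92, named after its values were seen) and Gjb5 fell (-5.02). E-cadherin (Cdh1) did not pass, at 967, 1079.7 and 1089.5 CPM in the naive libraries and 1180.5, 826 and 1188 CPM in the EpiLC libraries (log2 change 0.03 ± 0.18, edgeR adjusted p = 0.911, named after its values were seen). Among 14 apical genes 8 rose and 3 fell. The sialomucin Podxl, which lines the lumen of the epiblast rosette, rose from 11.5, 9.13 and 12.2 CPM to 197, 104 and 129 CPM, the tight junction protein Cgn by 4.42, and Muc1 fell by 2.56 on the log2 scale.

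Matrix genes moved in both directions. Of 22 basement membrane genes 8 rose and 11 fell, and the rising count was 5 without naive replicate 2, naive replicate 3 or EpiLC replicate 1. The laminin α1 chain Lama1 was at 275, 227 and 280.3 CPM in the naive libraries and 4.30, 9.45 and 6.88 CPM in the EpiLC libraries (log2 change -5.26 ± 0.40, edgeR adjusted p = 4.88e-07) and the linker protein Nid1 at 980.1, 1136 and 1014 CPM in the naive libraries and 27.1, 66.2 and 29.0 CPM in the EpiLC libraries (log2 change -4.68 ± 0.31, edgeR adjusted p = 1.55e-07), while the collagen Col18a1 was at 57.8, 45.3 and 52.7 CPM in the naive libraries and 1075, 852 and 836 CPM in the EpiLC libraries (log2 change 4.15 ± 0.13, edgeR adjusted p = 8.85e-10). Integrins rose in 8 of 14 and fell in 6 (5 rose without naive replicate 1 or with only the control libraries fitted), with Itgb1 up (0.79) and Itgb4 (-1.78) and Itgav (-1.09) down. Of 15 tested EMT and mesenchymal genes 8 fell and 4 rose (2 rose without naive replicate 1, naive replicate 3 or EpiLC replicate 2, or with only the control libraries fitted): fibronectin (Fn1) fell from 3309, 3240 and 3483 CPM to 942, 929 and 720.5 CPM, Zeb1 by 2.99, Ncam1 by 3.26 and Tgfb2 by 3.23 on the log2 scale, and the protease Mmp2 rose (2.76).

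Most glycolysis genes rose, whereas most nuclear genes of oxidative phosphorylation did not pass the test. Of 26 glycolysis genes 17 rose and 5 fell (median 1.00). The lactate exporter Slc16a3 (MCT4) was at 6.09, 4.81 and 5.84 CPM in the naive libraries and 619, 506 and 486 CPM in the EpiLC libraries (log2 change 6.59 ± 0.25, edgeR adjusted p = 1.5e-09), a 96.2-fold rise. The glucose transporter Slc2a1 was at 126, 109 and 139.7 CPM in the naive libraries and 478, 405 and 652 CPM in the EpiLC libraries (log2 change 2.03 ± 0.16, edgeR adjusted p = 7.53e-07), and its relative Slc2a3 at 1604, 1269.6 and 1635 CPM in the naive libraries and 177, 320.1 and 212 CPM in the EpiLC libraries (log2 change -2.67 ± 0.20, edgeR adjusted p = 5.2e-07). The 2 glucose transporters thus moved in opposite directions in all 3 clones. Hexokinase 1 (Hk1) fell from 319.7, 299 and 349.7 CPM to 78.1, 80.7 and 83.1 CPM (log2 change -2.001 ± 0.13, edgeR adjusted p = 1.78e-07). Pdk1, a pyruvate dehydrogenase kinase gene and also a hypoxia response gene, was at 22.3, 14.2 and 20.9 CPM in the naive libraries and 306, 429 and 357 CPM in the EpiLC libraries (log2 change 4.25 ± 0.20, edgeR adjusted p = 1.06e-08).

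In the pyruvate and TCA list 4 of 29 rose and 9 fell (median -0.06), with Idh1 (-1.20) and Idh2 (-1.31) down and Pdk3 (0.68) up beside Pdk1. Of 53 nuclear genes of oxidative phosphorylation 0 rose and 12 fell by edgeR (median -0.10), a falling share below the 26.3% over all tested genes, and 1 was higher at an unadjusted p under 0.05. The rising count was 2 with clones blocked, when 16 fell, 2 without EpiLC replicate 2 and 1 by DESeq2. Cox5a fell from 100.5, 130.2 and 94.5 CPM to 52.5, 41.7 and 43.1 CPM, Uqcrb by 1.08 on the log2 scale, Cox6b1 by 0.84 and Ndufa6 by 0.53. Of 9 tested mitochondrially encoded genes 0 passed by edgeR or DESeq2 (median -0.42), and 1 was lower at an unadjusted p under 0.05. With clones blocked, or with only the control libraries fitted, 3 fell, 5 fell with no filter on low counts, and 2 fell without EpiLC replicate 2. The other 6 of the list are given as 0 counts in all 6 libraries. Fatty acid oxidation genes fell in 9 of 16 and rose in 3 (5 by DESeq2), including the carnitine transferase Cpt1a at 245, 191 and 259 CPM in the naive libraries and 39.1, 43.8 and 48.0 CPM in the EpiLC libraries (log2 change -2.41 ± 0.19, edgeR adjusted p = 7.26e-07), Acadm (-1.53) and Acads (-0.95), with Acadl upward (1.06). In fatty acid synthesis 4 of 14 rose and 6 fell, with the desaturase Fads2 (1.57) and the carboxylase Acaca (1.11) up, and Scd1 (-0.77) and the regulator Srebf1 (-0.54) down.

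Cholesterol synthesis genes rose in 15 of 23 cases and fell in 3 (1 without naive replicate 2), with a median of 0.64. Lanosterol synthase Lss was at 76.8, 80.7 and 72.7 CPM in the naive libraries and 181, 164 and 186 CPM in the EpiLC libraries (log2 change 1.20 ± 0.11, edgeR adjusted p = 2.73e-06). Mvd rose (1.10), and the isomerase Ebp fell (-1.51). Of 17 tested hypoxia genes 9 rose and 3 fell. Egln3, an oxygen-sensing prolyl hydroxylase, rose from 2.69, 3.56 and 3.32 CPM to 53.4, 48.3 and 58.0 CPM and the mitophagy receptor Bnip3, which shares 22.3% of its exon bases with another gene, from 2.79, 1.79 and 2.02 CPM to 33.4, 27.2 and 34.5 CPM. Kdm3a, also in this list, fell.

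**Figure D5:**
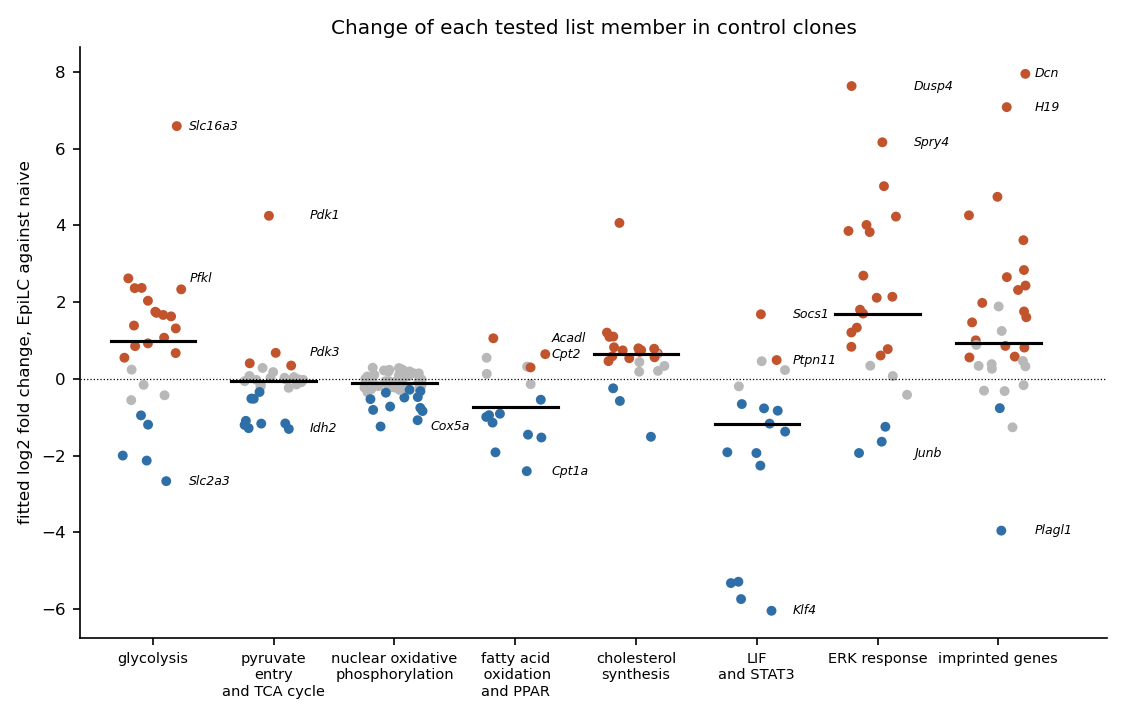
Fitted log2 fold change of every tested member of 8 gene lists, EpiLCs against naive control cells, with points spread sideways for legibility, a black bar at the list's median, and grey for members that did not pass. Slc16a3 (6.59) and Slc2a3 (-2.67) mark the ends of the glycolysis list, while the oxidative phosphorylation points lie between -1.24 and 0.29.

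Amino acid metabolism stands in the title of the series. Of 21 serine, glycine, threonine and one-carbon genes 6 rose and 3 fell (median 0.25), and 11 rose without replicate 2 of both conditions. Glycine decarboxylase Gldc was at 227, 269 and 246 CPM in the naive libraries and 580.1, 629 and 610.4 CPM in the EpiLC libraries (log2 change 1.29 ± 0.13, edgeR adjusted p = 6.35e-06). Tdh, which feeds threonine into glycine and acetyl-CoA in naive mouse cells, was at 743, 312 and 696 CPM in the naive libraries and 123, 38.6 and 44.9 CPM in the EpiLC libraries (log2 change -3.08 ± 0.49, edgeR adjusted p = 0.000188) and lies in the low stretch of chromosome 14. The folate carrier Slc25a32 (0.98) and the S-adenosylmethionine synthase Mat2a (0.69) rose.

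Targets of ATF4, the factor of the integrated stress response, differed between clones. Of 27 genes 9 rose and 3 fell (median 0.42), and the median change per clone was 1.37, -0.58 and 0.62. Without naive replicate 1, 6 rose and 5 fell, and without naive replicate 3, EpiLC replicate 1 or EpiLC replicate 3, 7 rose. Without naive replicate 2 the rising count was 14, and without replicate 2 of both conditions it was 19. Slc38a2, a neutral amino acid transporter, rose in all clones with 188, 246 and 222 CPM in the naive libraries and 1065, 1025 and 1006 CPM in the EpiLC libraries (log2 change 2.24 ± 0.13, edgeR adjusted p = 5.07e-08), and so did the cystine transporter Slc7a11, at 2.88, 6.18 and 3.00 CPM in the naive libraries and 18.1, 15.99 and 21.8 CPM in the EpiLC libraries (log2 change 2.21 ± 0.27, edgeR adjusted p = 2.68e-05). Asparagine synthetase Asns fell in all 3, at 975, 1123 and 939.7 CPM in the naive libraries and 446, 395 and 449 CPM in the EpiLC libraries (log2 change -1.24 ± 0.11, edgeR adjusted p = 1.63e-06). Chac1, a glutathione-degrading target named after its values were seen, changed by 2.69, -0.03 and 1.78 in the 3 clones. Its naive levels were 16.6, 48.1 and 30.4 CPM, highest in replicate 2.

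Growth and cell cycle lists had median log2 changes, against -0.01 over all tested genes, of 0.21 for MYC and its targets, 0.21 for G1 and S phase and 0.03 for G2 and M phase. Of 22 MYC family and target genes 9 rose and 1, the antagonist Mnt, fell (-0.37). Myc rose from 5.41, 1.54 and 2.63 CPM to 61.9, 53.1 and 64.3 CPM (log2 change 4.23 ± 0.38, edgeR adjusted p = 2.14e-06), Mycn from 84.8, 78.2 and 82.1 CPM to 285, 163 and 232 CPM, and the polyamine enzyme Odc1 by 1.88. Mnt had an edgeR adjusted p of 0.0458 and was not called without naive replicate 1 or 3 or without EpiLC replicate 2 or 3. Nor was Mnt called with RLE factors (edgeR adjusted p = 0.0581), by DESeq2 (adjusted p = 0.0573), with only the control libraries fitted or without replicate 2 of both conditions. Of 30 G1 and S phase genes 13 rose and 7 fell: cyclin E1 (Ccne1) rose from 101, 96.2 and 108 CPM to 329, 304 and 284 CPM (log2 change 1.59 ± 0.08, edgeR adjusted p = 2.58e-08), cyclin D2 (Ccnd2) from 0.192, 0.352 and 0.478 CPM to 20.8, 11.0 and 24.2 CPM, and the inhibitor Cdkn1a fell from 227, 249.5 and 292 CPM to 71.4, 85.5 and 70.1 CPM (log2 change -1.76 ± 0.16, edgeR adjusted p = 2.08e-06). Of 20 G2 and M phase genes 6 rose and 3 fell, none upward by 2-fold, with Cdc20 (0.62), Top2a (0.58) and Plk1 (0.50) among them. Of 50 ribosomal protein genes 4 rose and 3 fell (9 and 3 with clones blocked in the fit of 12 libraries, 7 rose without naive replicate 1 and 1 fell without EpiLC replicate 3), and near-identical pseudogenes leave these values uncertain.

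Among 25 tested apoptosis regulators 11 rose and 8 fell. The BH3-only gene Bcl2l11 (BIM) was at 9.10, 11.5 and 13.3 CPM in the naive libraries and 69.2, 55.2 and 68.8 CPM in the EpiLC libraries (log2 change 2.51 ± 0.17, edgeR adjusted p = 2.15e-07), Pmaip1 (NOXA) at 2.08, 5.51 and 4.86 CPM in the naive libraries and 70.9, 106 and 116 CPM in the EpiLC libraries (log2 change 4.55 ± 0.31, edgeR adjusted p = 2.24e-07) and Bmf rose by 2.46, as did the kinase Dapk1 (3.78). All 3 BH3-only genes were higher in every EpiLC library than in any naive one. The p53 list split evenly, 6 of 20 each way, shares near the 26.4% and 26.3% over all tested genes, with Zmat3 up (0.84) and Mdm4 down (-0.83). Of 18 genes of the LIN28 and small RNA list 8 rose and 5 fell (3 fell when no filter on low counts was used), and of 27 splicing regulators 10 rose and 5 fell (6 rose without naive replicate 2). Besides Esrp1, the KH-domain protein Pcbp4 rose from 61.7, 73.0 and 70.3 CPM to 284, 239 and 253 CPM (log2 change 1.92 ± 0.12, edgeR adjusted p = 8.87e-08), and the neuronal regulator Nova2 fell from 17.8, 18.6 and 16.4 CPM to 2.39, 1.87 and 2.46 CPM (log2 change -2.97 ± 0.16, edgeR adjusted p = 2.58e-08). Ago2 fell (-0.69) and Tnrc6a rose (0.60).

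Imprinted genes rose in 18 of 32 tested (35 listed) and fell in 2, with a median of 0.94 (17 and 6 without EpiLC replicate 2). Snrpn, paternally expressed, rose from 19.4, 21.3 and 16.7 CPM to 145, 111 and 103 CPM (log2 change 2.65 ± 0.25, edgeR adjusted p = 3.08e-06) and shares 34.1% of its exon bases with other annotated genes, Snurf among them. The growth inhibitor Cdkn1c was at 1.70, 1.63 and 1.91 CPM in the naive libraries and 14.9, 10.6 and 12.0 CPM in the EpiLC libraries (log2 change 2.83 ± 0.33, edgeR adjusted p = 1.5e-05) and shares 30.7%. The NOTCH-like Dlk1 rose (4.26), and the zinc finger gene Plagl1 fell from 18.4, 68.1 and 25.5 CPM to 1.48, 4.26 and 1.60 CPM (log2 change -3.96 ± 0.56, edgeR adjusted p = 7.57e-05). H19, named after its values were seen, showed 3.65, 26.9 and 3.62 CPM in EpiLCs, with replicate 2 far above the others.

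Hox genes were low and fell further. Of 38, 19 were tested, 15 fell and 1 rose, with a median of -3.48, also when the 4 members at 0 in 1 condition are set at their bound of 3 counts over the group. A member near 0 in EpiLCs could pass the count filter only through libraries where it was higher. For such members the direction was largely set by the filter, so these counts and the median only describe the tested members. With at least 1 CPM in at least 3 libraries required, 7 fell and none rose, because fewer were tested. Summed over all 38 members, tested or not, naive libraries held 51.1 to 66.8 CPM and EpiLC libraries 4.35 to 7.10 CPM. Hoxc13 fell from 18.3, 18.6 and 21.4 CPM to 0.564, 1.20 and 0.499 CPM and Hoxb13 from 3.40, 6.25 and 3.93 CPM to 0.161, 0.187 and 0.0998 CPM. The riser, Hoxb1, had no counts in naive cells and 0.323, 0.0374 and 0.0333 CPM in EpiLCs, and lost its call without EpiLC replicate 1.

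Surface markers turned over, with 13 of 23 tested lower and 8 higher. The receptor tyrosine kinase Kit was at 660.4, 702 and 729.7 CPM in the naive libraries and 18.1, 33.8 and 20.6 CPM in the EpiLC libraries (log2 change -4.85 ± 0.21, edgeR adjusted p = 4.55e-09), and the alkaline phosphatase Alpl at 569, 579 and 622 CPM in the naive libraries and 123, 133 and 102 CPM in the EpiLC libraries (log2 change -2.31 ± 0.11, edgeR adjusted p = 1.45e-08). The ephrin receptor Epha1 rose from 0.545, 0.545 and 0.451 CPM to 50.4, 15.2 and 36.6 CPM (log2 change 6.05 ± 0.43, edgeR adjusted p = 2.7e-07). Of 25 germline genes 7 rose and 6 fell, shares near those over all tested genes (26.4% and 26.3%), with Mael up (3.36) and Dazl down (-2.76). Of 10 tested 2-cell-like genes (21 listed) 1 rose, Sp110 (4.07), which was not tested with only the control libraries fitted. With clones blocked 4 rose in the fit of 12 libraries, and 2 without EpiLC replicate 2, without a filter or by DESeq2, and their summed level was 1.76 to 7.67 CPM in naive cells and 2.09 to 11.9 CPM in EpiLCs. In the metal transport list 7 of 17 rose and 4 fell (8 fell without EpiLC replicate 2), with the iron exporter Slc40a1 up from 1.22, 2.02 and 0.850 CPM to 26.2, 34.4 and 23.6 CPM and the zinc importer Slc39a14 (5.08), in the low chromosome 14 stretch, up as well.

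Most markers of other lineages were low. Primitive streak and mesoderm genes summed to 34.5 to 42.1 CPM in naive cells and 9.88 to 18.1 CPM in EpiLCs, with 1 of 12 tested genes up (Eomes, 2.06, and 2 up with clones blocked or without naive replicate 2 or 3 or EpiLC replicate 2 or 3) and 4 down (Gsc, Kdr, Snai1 and T, the last named after its values were seen). Trophoblast genes summed to 101 to 126 CPM before and 20.0 to 31.8 CPM after, with 4 of 11 up and 4 down. Their median log2 change was 0.20. The fall of the sum was led by Tfap2c, from 71.5, 81.1 and 97.0 CPM to 1.83, 3.44 and 1.06 CPM (log2 change -5.32 ± 0.30, edgeR adjusted p = 4.87e-08), and Tfap2a (-3.51) fell too. In the other direction, Gcm1 had 3 counts in the naive and 111 in the EpiLC libraries. This is a 38.8-fold higher level, with an exact 95% counting interval of 12.9 to 191. Endoderm genes rose in 4 of 15 and fell in 3, shares near the 26.4% and 26.3% over all tested genes. Most of their sum (403 to 662 CPM before, 213 to 254 CPM after) is Apoe, which is not limited to endoderm, while Sox17 lay at 0.107, 0.336 and 0.200 CPM in EpiLCs (named after its values were seen). Neuroectoderm genes summed to 57.6 to 82.7 CPM before and 38.3 to 85.5 CPM after, so these ranges overlapped. They rose in 2 of 9 and fell in 2, the risers being Irx3, at 0.887, 0.784 and 0.931 CPM in EpiLCs, and Pax6, at 0.752, 0.747 and 0.499 CPM. The Pax6 call was lost without naive replicate 1 or 2 or EpiLC replicate 1 or 2 (edgeR adjusted p 0.0541 to 0.0751). It was also lost with only the control libraries fitted (edgeR adjusted p = 0.0648). Of the fibroblast list 7 of 13 were tested, 4 rose and 3 fell. Acta2 was at 0.0320, 0 and 0 CPM in the naive libraries and 6.75, 0.896 and 7.45 CPM in the EpiLC libraries and Dcn at 0, 0.0321 and 0.0266 CPM in the naive libraries and 5.08, 4.74 and 7.65 CPM in the EpiLC libraries, on 1 and 2 naive counts in all, and Thy1 rose (2.58). T, Sox17, Gata4, Cdx2, Gata2 and Pax6, which define streak, endoderm, trophoblast and neural cells, were under 1 CPM in all 3 EpiLC libraries. The neural genes Nes, at 28.7, 9.71 and 35.05 CPM, and Tubb3, at 30.0, 19.01 and 40.2 CPM, and the matrix gene Fbln1, at 49.7, 27.3 and 42.8 CPM, were not. These 9 markers were singled out after their values were seen. The part of other cell types in the results was not tested beyond these values. Of 14 stress and RNA quality genes 6 fell and 1, Egr1 (3.82), rose (3 rose without naive replicate 2, and 2 without EpiLC replicate 3 or with clones blocked), and the list summed to 2937 to 3831 CPM before and 2934 to 3599 CPM after. Of 7 Y-linked genes 0 passed by edgeR or DESeq2 and 1 was lower at an unadjusted p under 0.05, but with clones blocked 5 fell in the fit of 12 libraries and 2 in that of the control libraries. Without the block 2 fell with only the control libraries fitted, and 1 without EpiLC replicate 2 or without a filter. The list summed to 236 to 255 CPM before and 94.5 to 190 CPM after.

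Most called changes had a similar size in the 3 clones, with clone 2 the least alike, and a few genes differed widely. Over 5991 called genes of at least 5 CPM the median SD of the log2 change across clones was 0.198. The test on the same libraries favours genes with a small spread, so this SD is no independent measure of agreement between clones. The differences of clones 1 and 3 correlated across genes at r = 0.934, and clone 2 with them at 0.851 and 0.862, a description over genes that are not independent. The called genes with the widest spread included Myl9, a myosin light chain, at 0.481, 0.801 and 0.425 CPM in the naive libraries and 51.5, 9.15 and 53.4 CPM in the EpiLC libraries, and the noncoding RNA Miat, at 0.0320, 0.288 and 0.0531 CPM in the naive libraries and 22.0, 5.83 and 25.7 CPM in the EpiLC libraries and with 30.4% of its exon bases shared. Serpinf1 changed by 4.61, 0.09 and 2.66 in clones 1, 2 and 3, and was not called with clones blocked in the control libraries alone (edgeR adjusted p = 0.0624). In these 3 genes clone 2 differed most from the other 2. Lrrn2 (-2.44, 0.83 and -2.66) overlapped between conditions. It was not called without naive replicate 1 or 3 or EpiLC replicate 2 or 3, with -1.05 in the first case. The call was also lost with only the control libraries fitted (edgeR adjusted p = 0.0825).

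The most abundant genes did not pass the test. In RPKM, which is CPM divided by the summed exon length in kilobases (mean ± SD, n = 3), mt-Co1 was at 5616 ± 1108 in naive cells and 4721 ± 407 in EpiLCs, Eef1a1, a translation elongation factor, at 3916 ± 304 and 3916 ± 218, and the chaperone Hsp90ab1 at 2565 ± 262 and 2792 ± 204. Rplp1 and mt-Nd1 followed. These 5 were the highest in both conditions, and copies of Eef1a1 and Rplp1 elsewhere in the genome make their values uncertain. On the same scale per length, Dnmt3b reached 460.3 ± 141 RPKM in EpiLCs and Dnmt3a 70.5 ± 16.8, against 14.6 ± 2.62 and 0.901 ± 0.187 in naive cells.

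Pcbp1, the gene targeted in the other clones, was expressed in both control conditions, at 475, 418 and 474 CPM in the naive libraries and 692, 512 and 592 CPM in the EpiLC libraries. It rose slightly (log2 change 0.39 ± 0.11, edgeR adjusted p = 0.00965) with no overlap, and lost the call without naive replicate 2 (edgeR adjusted p = 0.0529). The knockout clones had 295, 302 and 303 CPM in the naive and 250.3, 302 and 265 CPM in the EpiLC knockout libraries, so that Pcbp1 RNA was lower than in every control library but still present. The same transition in the knockout clones differed from that in the control clones for 69 genes (0.381%) by the interaction test. The count depends strongly on the libraries: it was 10 without naive replicate 3, 16 without EpiLC replicate 3, 20 without EpiLC replicate 1, 28 without naive replicate 1, 149 without EpiLC replicate 2 and 228 with clones blocked. Of the 69, 52 were also called in the control clones. Fgf10 was one, with -7.64 ± 0.54 in control and -2.63 ± 0.38 in knockout clones, and Calb2, a calcium-binding protein gene, another, with -3.35 ± 0.36 against 0.78 ± 0.36. Of the naive and formative lists Etv5 was the only gene among them, rising by 0.83 ± 0.08 in control clones and changing by 0.24 ± 0.07 in knockout clones.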

How the data were processed

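RNA was measured by poly(A)-selected RNA-seq in 12 libraries, of which the 6 from control clones are described here. The authors deposited 1 table of gene counts, whole reads per gene without normalization, made with featureCounts v2.0.1 and the GENCODE vM25 annotation, per the file header. The header shows neither a strand nor a multi-mapping option. Per the submitters' processing notes the build was GRCm38 (mm10), and fastp, FastQC, STAR and DESeq2 were used, with no version given in the sources used here. Sample groups came from the labels.

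Genes were kept with edgeR's filterByExpr (at least 10 counts, total 15) over all 12 libraries, scaled by TMM, and fitted by edgeR 4.0.16 (R 4.3.3) with the quasi-likelihood test, 1 mean per group of genotype and medium, so that the control contrast shares its dispersion with the knockout groups. Genes were called at a Benjamini-Hochberg adjusted p under 0.05. Standard errors are the fitted change divided by the square root of F. CPM and RPKM use TMM library sizes, and log2 CPM a prior count of 2. The 346 genes without a symbol held at most 0.0312% of any library. Precision is limited by the spread between clones and, at low levels, by counting error. P-values measure the spread between clones of 1 line, 3 per group, estimated over the control and knockout groups together.

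Same-numbered libraries deviated together, with correlations over genes of 0.236, 0.235 and 0.218 across conditions against -0.186 to -0.020 for other pairings. Numbers were therefore taken to mark clones, and the fit with clones as a block is an alternative. The other alternatives were RLE factors, library size alone, no filter, a filter of 1 CPM, control libraries only, each library left out and DESeq2 1.42.0. The fit script was tested on simulated data. Members and lists were chosen with earlier results of these data known. Named by rule were the 12 highest and 12 lowest changes among called genes of at least 5 CPM whose groups do not overlap, every tested naive and formative gene, of each other list up to 4 called members with the smallest adjusted p and the one strongest against the majority, up to 8 genes each on in 1 condition, Pcbp1, the 6 called genes with the widest clone spread, the 6 with the largest interaction and the 5 highest in RPKM per condition. Predicted or clone identifiers were passed over, and some genes are not reported here. Genes outside that rule are marked where they stand. Promoter letters were read from RefSeq windows (18104 symbols, 12348 matched), the first listed per symbol.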

Additional observations from a re-analysis of the deposited data

Results flagged for a closer look

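The transition was compared between knockout and control clones with an interaction term, edgeR's quasi-likelihood test and Benjamini-Hochberg adjustment, and 69 of 18134 genes differed (0.381%). The knockout change minus the control change was positive in 47 and negative in 22, where a positive sign includes genes that fell less in knockout clones. The named genes among them are given here because the test of the difference itself passed, each as the knockout change minus the control change, with 3 libraries per group. None of these differences was set against other explanations, and the count moves with single libraries as given above.

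Fgf10, an FGF ligand, differed by 5.01 ± 0.69 (edgeR adjusted p = 0.0165), since it fell less in knockout clones. Calb2 differed by 4.13 ± 0.51 (edgeR adjusted p = 0.0143). Amot, an angiomotin of the Hippo pathway, rose by 2.14 in control and 6.06 in knockout clones, a difference of 3.92 ± 0.43 (edgeR adjusted p = 0.0115). The T-box gene Tbx15 had changes of -5.01 and -1.35, a difference of 3.66 (edgeR adjusted p = 0.0342), and Adcy2, an adenylate cyclase, of -5.22 and -1.59, a difference of 3.63 (edgeR adjusted p = 0.0342). Dzip1l, a ciliary gene, rose by 2.05 and 5.15, a difference of 3.10 (edgeR adjusted p = 0.038). Id2, the inhibitor of differentiation, fell in control clones (-1.32) and rose in knockout clones (2.34), a difference of 3.66 (edgeR adjusted p = 0.0498). Its control change overlapped between conditions and was not called without naive replicate 2 or 3 or without EpiLC replicate 1 or 3, and was -2.07 without EpiLC replicate 2. With only the control libraries fitted it was not called either (edgeR adjusted p = 0.0841).

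Smaller differences were found in the collagen Col18a1 (-1.11, edgeR adjusted p = 0.0194), asparagine synthetase Asns (-1.09, edgeR adjusted p = 0.0165), cyclin E1, Ccne1 (0.64, edgeR adjusted p = 0.0425) and the ETS factor Etv5 (-0.59, edgeR adjusted p = 0.0399). Asns fell in both genotypes, with log2 changes of -1.24 in control and -2.32 in knockout clones.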

How the results depend on the processing

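Over 16 alternatives between 4081 and 5173 genes were higher and between 4174 and 5311 lower, 84.7% to 98.7% of the calls were kept, none turned direction, and the median change of all genes moved by at most 0.02. Leaving out both libraries of replicate 2, or all genes of chromosome 14, was chosen after seeing the data. With the replicate block the counts were 5173 and 5311 over all 12 libraries and 4486 and 4668 over the control libraries. The count of genes that differ between genotypes was the least stable: 564 without a filter, 228 with the replicate block on all 12 libraries, 509 by DESeq2, 222 without replicate 2 of both control groups, and 10 to 149 when single control libraries were left out. Genes on in EpiLCs only numbered 61 to 109, against 59 with all, and genes off in EpiLCs 34 to 64, against 34 with all, when single libraries were left out. Among named genes 42 values lost and 10 gained a call. In 19 cases a gene that was not called turned sign. Eef1a1 was at -0.0175 with library size alone, -0.0053 with the 1 CPM filter, -0.0065 with the control libraries, -0.0043 with them and the block, -0.0770 to 0.0378 without single libraries, -0.0280 without replicate 2 of both and -0.0001 without chromosome 14. Fgf4 was at -0.0027 with library size alone, -0.0016 and -0.0075 with the block on 12 and on the control libraries, -0.1655 to 0.1267 without single libraries and -0.2466 without replicate 2 of both. Gbx2 was at -0.0501 without replicate 2 of both, and Rplp1 at -0.0173 to 0.2015 without single libraries and -0.0044 without replicate 2 of both. The causes of these shifts were not tested. Depth limits genes under about 0.1 CPM, where 3 counts lie.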
